A study of Mus musculus with 14 samples.

Results

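Livers of female B6C3F1 mice given furan at 8 mg/kg body weight were compared with livers of mice given 1 mg/kg, without any vehicle control. The comparison used 10 of the 14 arrays of the series, 5 at each dose, taken from the sample titles. All 10 mice were bought at 5 to 6 weeks of age, received furan by oral gavage for 21 days, drank BrdU, a thymidine analogue that marks DNA synthesis, for 5 days before death, and were sampled 4 h after the last dose. Because both groups carried furan and BrdU, each difference below is between doses and not an effect of either agent alone. Each array carried Cy5-labelled liver RNA of 1 mouse against a Cy3-labelled universal mouse reference, with the same dye orientation throughout. Values are log2 ratios of liver over reference, and differences are 8 minus 1 mg/kg.

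Furan is a volatile food contaminant that cytochrome P450 2E1 opens to a reactive dialdehyde, which binds glutathione and proteins. Cells meet such electrophiles with NRF2, which drives conjugating and antioxidant enzymes, and meet DNA damage or related stress with p53, which drives cell cycle arrest and death genes. The endoplasmic reticulum (ER), where hepatocytes fold secreted proteins, has its own chaperone program under ATF6 and XBP1.

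The arrays lay on 5 slides, and each slide held 1 array of each dose. The slide, read from the barcode in the file header, was therefore a block in the fit and gave 5 within-slide pairs. Between 23065 and 29850 probes per array (41.4% to 53.6%) were well above background, and no spot was saturated. The largest component of variance held 32.5% of it, and 85.6% of that component lay between slides. The next held 19.7%, with 79.2% between doses. The 2 arrays of slide 3 stood apart for liver genes: the centred mean of 15 hepatocyte-defining genes was 1.22 and 0.97 there, against -0.48 to 0.13 on the other arrays. Of those 15 genes 0 passed the limma test, and 2 had an unadjusted p under 0.05, as had 20.6% of all genes. But their median of -0.12 turned to 0.38, with 3 higher, after quantile and scale normalization. Alb (6.29 ± 0.81 and 6.21 ± 0.60 at 1 and 8 mg/kg, SD, n = 5) and Ttr (6.88 ± 0.79 and 6.80 ± 0.57) stood far above the reference. In whole liver, fewer cells of a type and less RNA per cell cannot be told apart.

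Limma called 1044 of 21614 genes (4.83%) at an adjusted p under 0.05, 456 higher (2.11%) and 588 lower (2.72%) at 8 mg/kg. Each list count below is to be read against these shares of all genes. The lists were chosen with earlier results of these data known, so their counts are descriptive. Of the called genes 1004 had the same sign on all 5 slides, and 57 differed by at least 2-fold, 34 higher and 23 lower. The groups did not overlap for 461 of the called genes, and for 795 of all genes (3.68%). The split between directions depended on scaling: 43.7% of called genes were higher, against 58.1% after quantile and scale normalization between arrays, 61.2% after median centring and 78.6% with the scanner software's processed signals, which called 42 genes. Leaving out a slide also moved the count, to 333 genes without slide 2, 398 without slide 5 and 563 without slide 4.

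**Figure D1:**
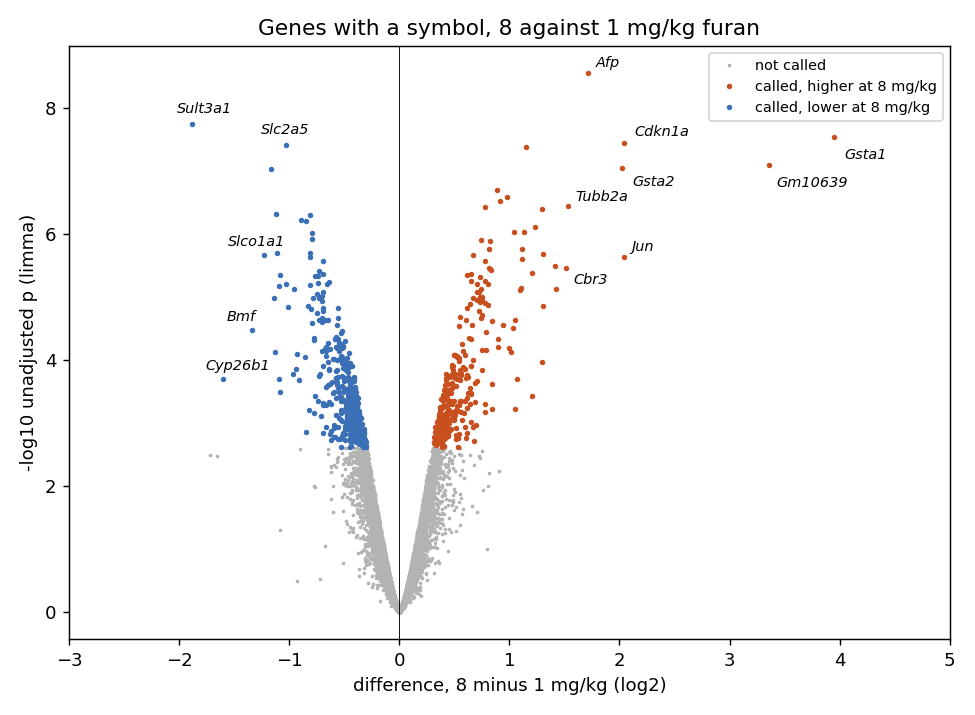
Each point is a gene with a symbol, plotted by its log2 difference (8 minus 1 mg/kg) and the -log10 of its unadjusted limma p; orange and blue points passed an adjusted p under 0.05. Gsta1 and Gm10639 lie farthest to the right at 3.95 and 3.36, and Sult3a1 farthest to the left among called genes at -1.89.

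Gsta1 and Gm10639 had the largest rises of the named genes; Gsta1 is an alpha-class glutathione S-transferase, a class that joins glutathione to electrophiles. Gsta1 stood at -0.83, -0.68, 0.57, 0.55 and -0.09 in the 5 mice at 1 mg/kg and at 4.78, 3.25, 3.84, 3.53 and 3.87 at 8 mg/kg. Every mouse at 8 mg/kg was far above every mouse at 1 mg/kg, a 15.4-fold difference (3.95 ± 0.31, SE; limma adjusted p = 0.000114). The related gene Gm10639 rose by 3.36 ± 0.29 (adjusted p = 0.000161, limma), and a second probe of it gave 1.72. Gsta2 went from 2.62 to 3.74 at 1 mg/kg to 5.01 to 5.80 at 8 mg/kg, a rise of 2.02 ± 0.17. Other alpha-class members did not pass: Gsta3, at 8.13 ± 0.36 and 8.03 ± 0.22 (SD, n = 5) at 1 and 8 mg/kg, differed by -0.11 and Gsta4 by -0.04. Genes of this class are close in sequence, so their probes may share transcripts. Over 43 measured NRF2 targets 16 rose and 0 fell, 37.2% of the list against 2.11% of all genes, with a median difference of 0.19 against -0.02 over all genes. Named members outside the alpha class were Cbr3, a carbonyl reductase, at 1.52 ± 0.19 (-2.45 to -2.17 at 1 mg/kg, -1.37 to 0.23 at 8 mg/kg), Gstm1 at 0.78 ± 0.10, the microsomal epoxide hydrolase Ephx1 at 0.65 ± 0.08 and the quinone reductase Nqo1 at 0.71 ± 0.10. Nqo1 overlapped between the groups, from -1.28 to -0.42 at 1 mg/kg and from -0.55 to 0.40 at 8 mg/kg. Ptgr1 (0.44) and Gstp1 (0.41) did not pass the test. Of 22 transferases 6 rose and 0 fell, and their median was -0.02 (3 rose without slide 2, 4 or 5). The heme oxygenase Hmox1 rose by 1.02 ± 0.17, with no overlap (-2.18 to -1.68 against -1.28 to -0.32). The NRF2 count was 9 without slide 2 and 10 without slide 5. It was 6 without the slide block, 4 with the replicate number as block and 3 with processed signals.

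**Figure D2:**
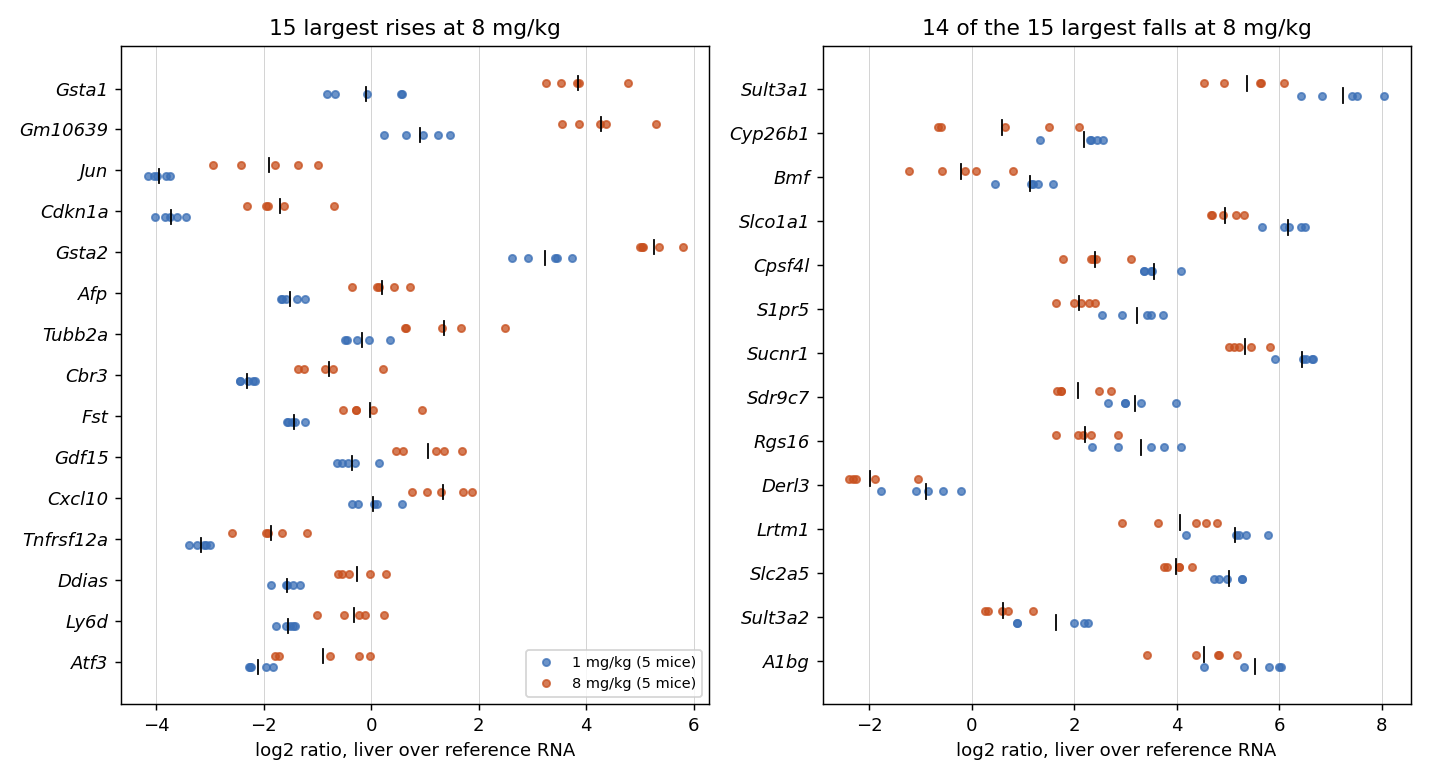
The 15 largest called rises and 14 of the 15 largest called falls, with each mouse as a point (blue 1 mg/kg, orange 8 mg/kg) and group means as bars, on the log2 ratio of liver over reference RNA. All 15 rises, and 6 of the 14 falls plotted, have groups that do not overlap.

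Targets of p53 were the list with the highest share of rises among the 47, all chosen with earlier results of these data known. Of 37 measured, 16 (43.2%, against 2.11% of all genes) rose and 0 fell, with a median of 0.32. The count stayed between 13 and 15 when any slide was left out. It was 12 without the slide block, 11 with the replicate number as block and 7 with processed signals. Cdkn1a, the cyclin-dependent kinase inhibitor p21, stood at -3.61, -3.45, -3.75, -3.83 and -4.03 at 1 mg/kg and at -0.69, -1.92, -1.95, -2.31 and -1.62 at 8 mg/kg. The groups were far apart, a 4.10-fold difference (2.04 ± 0.16; limma adjusted p = 0.000114). A second Cdkn1a probe was well above background on 0 arrays. Aen, an apoptosis-enhancing nuclease, rose by 1.15 ± 0.09 with no overlap (-0.84 to -0.42 against 0.26 to 0.92). Zmat3, an RNA-binding protein, rose by 0.88 ± 0.08, and the death receptor Tnfrsf10b by 0.82 ± 0.09. Ccng1 rose by 0.78 ± 0.09 and Sesn2 by 0.75 ± 0.08. Plk3 (0.56) and Mgmt (0.32) did not pass. Within 33 apoptosis regulators 3 rose and 3 fell (18.2% called, against 4.83% of all genes). Bax, a pore-forming effector, rose by 0.67 ± 0.09, whereas the BH3-only gene Bmf fell by 1.34 on the log2 scale (SE 0.21) and Casp9 by 0.42. The groups overlapped for Bmf, and its within-slide differences ran from -2.41 to -0.49. Ddias, a gene named for suppression of damage-induced apoptosis, rose by 1.29 ± 0.13 and was well above background on 3 of 5 arrays at 1 mg/kg.

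Several early response and stress genes rose. Jun, an AP-1 subunit, stood at -4.15 to -3.75 at 1 mg/kg and at -1.37, -2.43, -1.80, -2.95 and -0.99 at 8 mg/kg. The groups did not overlap, and the mice at 8 mg/kg differed among themselves by more than those at 1 mg/kg (2.05 ± 0.24; limma adjusted p = 0.000945). Myc rose by 1.21 ± 0.15, the phosphatase Dusp6 by 1.11 ± 0.13 and Atf3 by 1.21 ± 0.24. Atf3 differed by 0.24 to 2.22 within slides, and its limma adjusted p was 0.068 without slide 2, 0.070 without slide 4 and 0.054 without slide 5. In all, 7 of 28 early response genes rose and 0 fell (median 0.23; 3 without slide 2, 4 without slide 4 or slide 5). Without the slide block 3 rose, with the replicate number as block 2, and with processed signals 0. The list median was 0.01 after quantile and scale normalization, where 5 rose and 1 fell. The integrated stress response, which ATF4 drives, had 5 of 23 genes higher and 0 lower (2 without slide 2 or slide 5, 3 without slide 4). Its median was 0.15, with 16 differences above 0 and 7 below. Without the slide block or with the replicate number as block 2 rose, and with processed signals 1. The called genes were Gdf15, Vldlr, Atf3, Atf4 and Sesn2, the last also named above with the p53 targets. Asns (0.34), Fgf21 (0.57), Ddit3 (0.11), Chac1 (-0.28) and Trib3 (-0.26) did not pass. Gdf15, a stress-secreted hormone, stood at -0.63 to 0.14 at 1 mg/kg and at 1.35, 0.46, 1.20, 0.59 and 1.69 at 8 mg/kg, without overlap, a rise of 1.41 ± 0.17. Fst, which encodes the activin antagonist follistatin, stood at -1.57 to -1.23 at 1 mg/kg and at -0.27, 0.95, -0.29, -0.52 and 0.03 at 8 mg/kg. It rose by 1.43 ± 0.19, also without overlap. Among cytokines Cxcl10 rose by 1.31 ± 0.18, and the TWEAK receptor Tnfrsf12a rose by 1.30 ± 0.15. Of 21 cytosolic heat shock genes 3 rose and 0 fell (1 without slide 4 or slide 5), led by Hspb1 at 1.00 ± 0.16, whose groups overlapped (-1.07 to -0.30 against -0.31 to 0.87). Dusp8 was picked for being well above background on all 5 arrays at 8 mg/kg and on 0 at 1 mg/kg. It passed the filter on dim probes only through the 8 mg/kg arrays, so that pattern is no separate result. Its fitted difference was 0.90 ± 0.14.

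Chaperones of the ER went the other way, and the promoters of several share a known element. ER stress elements (CCAAT, 9 bases of any kind, CCACG, on either strand) were sought in RefSeq promoter windows of GRCm38.p6, from 250 bases before to 50 after each gene's start. They occurred in 39 of 32851 windows (0.119%), and in 10 of the 27 genes of the ER list that had a window. In all, 6 motifs were searched, and this motif and the promoters shown were picked after matches and differences had been seen. The 60 bases around the element are given 5′ to 3′ with the element in capitals. The first 4 genes passed the test and the last 4 did not.
Derl3, chr10:75893222-75893281, + strand: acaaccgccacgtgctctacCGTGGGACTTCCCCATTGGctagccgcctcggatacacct
Ero1b, chr13:12565662-12565721, + strand: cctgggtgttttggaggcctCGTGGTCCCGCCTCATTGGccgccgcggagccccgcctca
Creld2, chr15:88819500-88819559, + strand: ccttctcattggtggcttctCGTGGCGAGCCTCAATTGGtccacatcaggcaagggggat
Hspa5, chr2:34772005-34772064, + strand: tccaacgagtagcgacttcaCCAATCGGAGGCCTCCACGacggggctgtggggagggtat
Calr, chr8:84847054-84847113, - strand: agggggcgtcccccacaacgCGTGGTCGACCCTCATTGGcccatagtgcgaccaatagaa
Canx, chr11:50325779-50325838, - strand: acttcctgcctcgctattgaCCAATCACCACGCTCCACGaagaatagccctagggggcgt
Hsp90b1, chr10:86705617-86705676, - strand: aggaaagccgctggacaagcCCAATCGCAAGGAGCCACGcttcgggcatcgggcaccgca
Pdia6, chr12:17266471-17266530, + strand: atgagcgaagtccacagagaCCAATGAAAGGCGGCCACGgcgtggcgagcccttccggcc

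Of 31 ER chaperone, folding and degradation genes 8 fell (25.8%, against 2.72% of all genes) and 0 rose, and 28 differences were below 0 (median -0.26; slide medians -0.36 to -0.08). The count was 6 to 10 when any slide was left out. It was 4 without the slide block, 2 with all 14 arrays in the fit and 0 with processed signals, with a median of -0.26 each time. Hspa5, the chaperone BiP, stood at 0.59, 0.57, 0.43, 0.56 and 0.22 at 1 mg/kg and at 0.06, 0.12, -0.23, -0.08 and -0.30 at 8 mg/kg. The groups did not overlap, and Hspa5 fell by 0.56 on the log2 scale (SE 0.09; limma adjusted p = 0.00669). Derl3, which acts in ER-associated degradation, fell by 1.08 (SE 0.14), though its groups overlapped. Ero1b, an oxidase for disulfide formation, fell by 0.70 and Creld2 by 0.79, both without overlap. Manf fell by 0.67 and the disulfide isomerase Pdia4 by 0.49. Canx (-0.32) and Selenok (-0.31) did not pass. All 10 list genes with the element had differences below 0, 4 of them called; so had 14 of the 17 list genes with a window and without it, 3 of them called. Outside the list, 8 genes tested had the element, of which 7 had differences below 0 and 1, Acacb, was called.

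**Figure D3:**
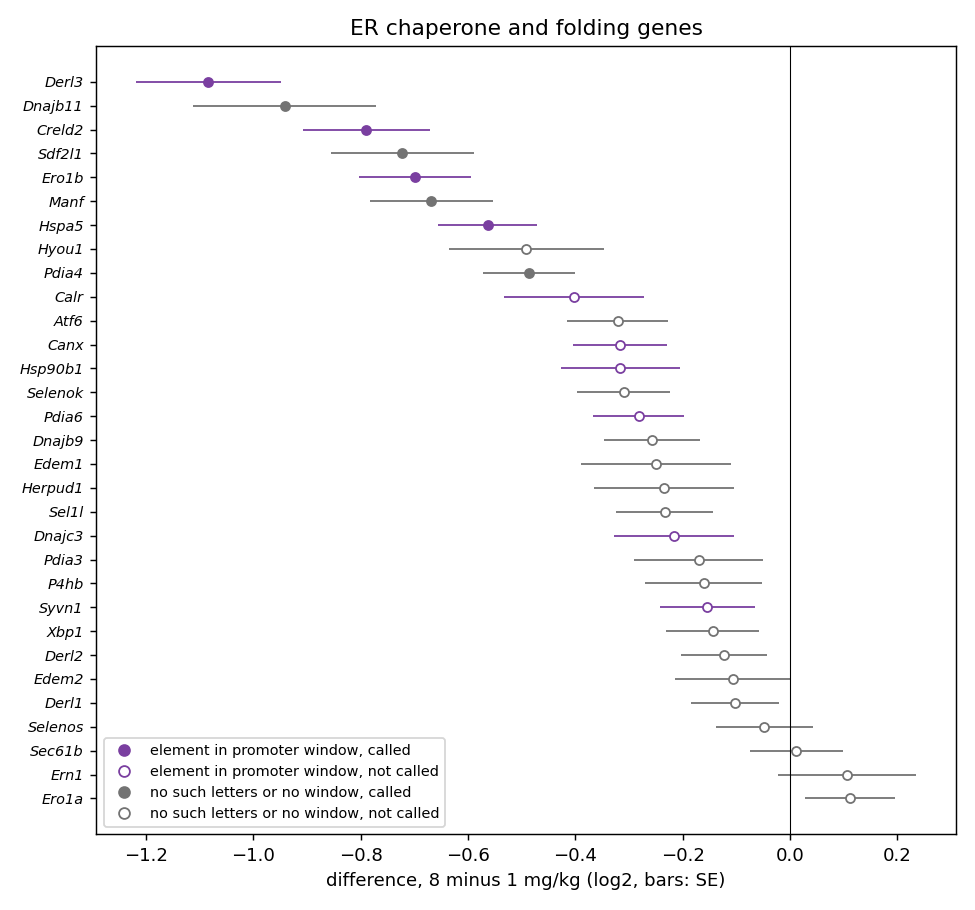
Differences (8 minus 1 mg/kg, log2, bars SE) of the 31 ER genes; filled points passed the test and purple points have the ER stress element in the promoter window. Derl3 is lowest at -1.08, and 3 genes lie above 0.

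Shares over windows and counts over genes are not on the same footing, since a gene can have several windows. The other motifs, also searched on both strands, were more common over all windows. The antioxidant response element core (TGACNNNGC), present in 12.4% of all windows, was in 12 of 37 NRF2 targets with a window, 4 of 14 called and 8 of 23 not called. The E-box (CACGTG; 7.15% of windows) was in 7 of 29 ribosome biogenesis genes, 1 of 9 called and 6 of 20 not called. An AP-1 element (TGACTCA; 5.20%) was in 0 of 23 early response genes. A p53 half-site pair (CATG, 6 bases of any kind, CATG; 0.712%) was searched too, but under 80% of p53 targets had a window, as for the sterol element core (TCACNCCAC) in cholesterol genes, so those shares are void.

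The median of ribosome assembly genes was above 0 on every slide, and mitotic genes differed between mice. Of 34 ribosome biogenesis genes 11 (32.4%) rose and 0 fell (median 0.23), with Nop58, a box C/D snoRNP core protein, at 0.71 ± 0.09 and Rrp12 at 0.50 ± 0.09. The count was 2 without slide 2 and 3 without slide 4 or slide 5. It was 2 without the slide block, 0 with the replicate number as block and 0 with processed signals. Structural ribosomal protein genes had 0 of 45 called in limma (1 at an unadjusted p under 0.05, against 20.6% of all genes). Mitotic genes had a median of 0.32, but slide medians ran from -0.11 to 0.90. Of 35 measured, only Mad2l1, a spindle checkpoint gene, passed (0.58 ± 0.13). That share was 2.86%, against 2.11% of all genes called higher. Cdc20 (chosen after its values were seen) shows the spread: at 8 mg/kg its values were -2.12, -4.20, -2.60, -4.45 and -3.61, against -4.61 to -3.96 at 1 mg/kg. Some mice at 8 mg/kg were far above the 1 mg/kg range and others within it. Without slide 3, 7 mitotic genes rose, and 3 without slide 1; without slide 2, 4 or 5, 0 did. Of 38 S phase genes 2 rose (5.26%, against 2.11% of all genes): Prim1, of the DNA primase, by 0.75 ± 0.12, and Fen1 by 0.35 ± 0.09. The S phase median of 0.14 turned to -0.06 after quantile and scale normalization. Tubulins and cytoskeletal genes had 6 of 33 higher and 0 lower, with a median of 0.07 that turned to -0.06 after quantile and scale normalization. Tubb2a stood at -0.48 to 0.36 at 1 mg/kg and at 2.48, 1.67, 0.65, 1.31 and 0.64 at 8 mg/kg, without overlap. It rose by 1.53 ± 0.15 and Tubb4b by 0.98 ± 0.09, and the list count was 3 without slide 2, 3, 4 or 5. Without the slide block or with the replicate number as block the count was 2, and with processed signals 1.

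**Figure D4:**
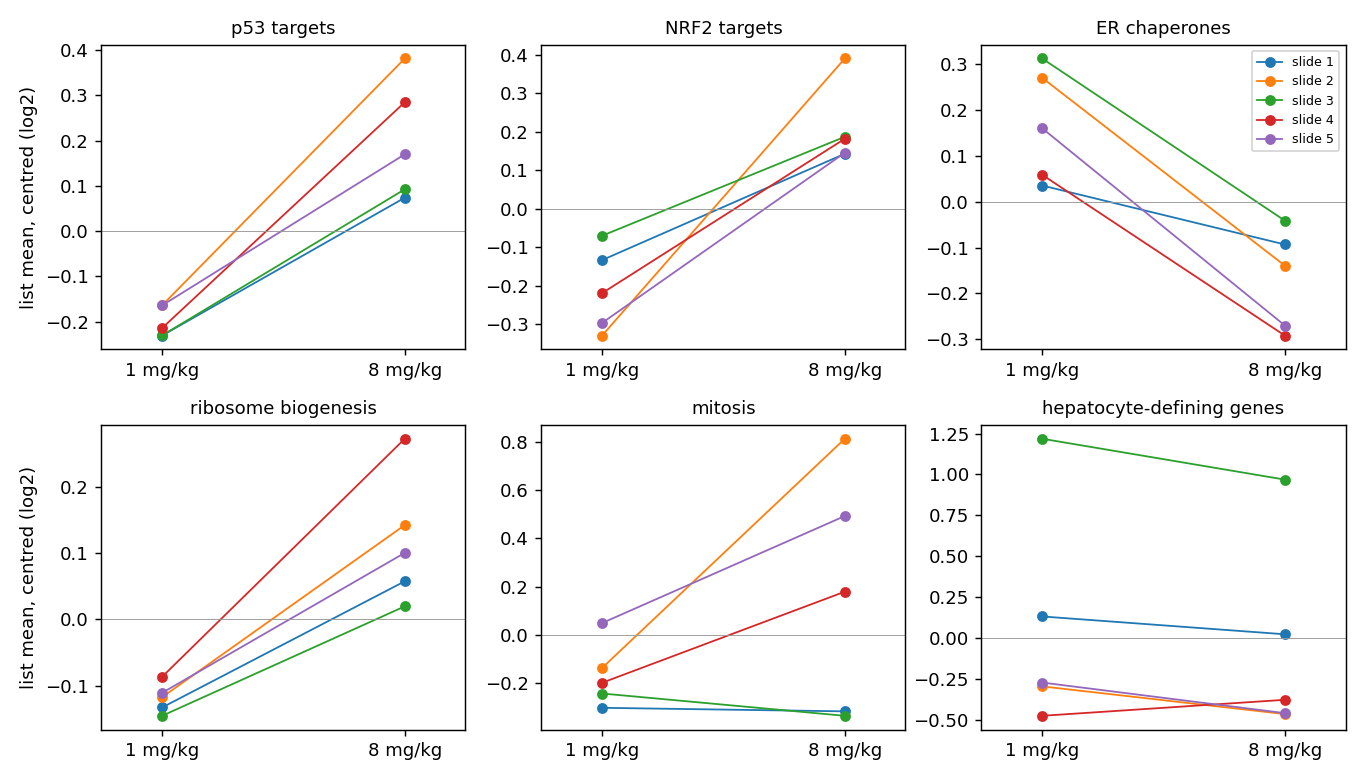
Mean of each list per mouse, centred on 0 over the 10 arrays (log2), with lines joining the 2 mice of a slide. The p53, NRF2 and ribosome biogenesis means are higher and the ER mean lower at 8 mg/kg on every slide; mitosis is not higher on slides 1 and 3, and slide 3 stands apart for hepatocyte genes.

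Some fetal and progenitor genes rose. Afp, the fetal serum protein alpha-fetoprotein, stood at -1.68 to -1.23 at 1 mg/kg and at 0.72, 0.10, 0.42, -0.36 and 0.15 at 8 mg/kg, without overlap. It rose by 1.72 ± 0.11, with the smallest adjusted p of all genes (4.73e-05, limma). Of 13 fetal liver genes 3 (23.1%, against 2.11% of all genes) rose and 0 fell (1 without slide 4 or slide 5). Besides Afp these were Tff3 (1.05) and Scd2 (0.54), both with overlapping groups. The fetal list had a median of 0.16, with 10 differences above 0 and 3 below (Cd34, Igf2bp1 and Dlk1). Of 21 cholangiocyte and progenitor markers 5 (23.8%) rose and 0 fell, with a median of -0.02 and 11 differences below 0. Prom1, a stem and progenitor cell surface protein, rose by 1.13 ± 0.12 and Ly6d by 1.23 ± 0.13. The defining cholangiocyte markers Krt19 (-0.09) and Epcam (0.17) did not pass. Epcam was well above background on only 3 of 5 arrays at 1 mg/kg and 2 of 5 at 8 mg/kg.

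Some lipid synthesis genes fell. Of 25 fatty acid synthesis genes 8 fell (32.0%) and 0 rose (median -0.28). Of 27 cholesterol genes 6 fell (22.2%) and 0 rose (median -0.26), where 2.72% of all genes fell. Acacb, an acetyl-CoA carboxylase, fell by 0.67 on the log2 scale (SE 0.10; 3.42 to 3.78 at 1 mg/kg against 2.73 to 3.06 at 8 mg/kg, no overlap), and Fdps, of the mevalonate pathway, by 0.56 (SE 0.10). Both lists kept a median below 0 under every scaling tried, but their counts did not hold. The fatty acid count was 1 without slide 2, 2 without slide 4, 3 without slide 5 and 4 without slide 1 or 3. The cholesterol count was 1 without slide 2, 2 without slide 5 and 3 without slide 4. In each list 1 gene fell without the slide block, 1 with the replicate number as block and 0 with processed signals.

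Some drug handling and sex-biased genes fell. Sult3a1, a female-biased amine sulfotransferase, stood at 7.51, 8.04, 6.43, 7.42 and 6.84 at 1 mg/kg and at 6.08, 5.64, 5.63, 4.53 and 4.92 at 8 mg/kg. The groups did not overlap, and it fell by 1.89 on the log2 scale (SE 0.14; limma adjusted p = 0.000114). Its paralog Sult3a2 fell by 1.03 (SE 0.13) and was well above background on 3 of 5 arrays at 8 mg/kg. The organic anion transporter Slco1a1 stood at 6.42, 6.10, 5.66, 6.51 and 6.20 at 1 mg/kg and at 4.66, 5.32, 4.69, 4.91 and 5.16 at 8 mg/kg, with no overlap. It fell by 1.23 (SE 0.14) and Nr0b2, the repressor SHP of bile acid synthesis, by 0.82 (SE 0.08), both without overlap. In these lists 7 of 33 sex-biased, 6 of 26 UGT and SULT, and 4 of 30 bile acid genes fell. In the same order 2, 2 and 1 were higher. The sex-biased list pools female-biased and male-biased genes, so its count and median give no sex direction. All their medians (-0.23, -0.09 and -0.17) turned above 0 after quantile and scale normalization (0.09, 0.21 and 0.19). There 8, 8 and 2 genes were higher and 4, 3 and 2 lower. The sex-biased count was 4 without slide 2, and the bile acid count 7 without slide 3. Complement and coagulation genes, 7 of 34 lower and 1 higher, turned from a median of -0.22 to 0.23 under that scaling, with 0 or 1 lower without slide 1, 2, 3 or 5. Retinoid genes had 4 of 25 lower (2 without slide 2), and their median of -0.09 became 0.07 under the same scaling; Cyp26b1, which degrades retinoic acid, fell by 1.60 with overlapping groups (SE 0.30), and Sdr9c7 by 1.11. Cyp26b1 had a limma adjusted p of 0.053 without slide 4.

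Further large falls were in genes of varied function. Slc2a5, the fructose transporter GLUT5, stood at 4.83, 4.72, 4.99, 5.28 and 5.28 at 1 mg/kg and at 3.80, 4.31, 3.76, 4.04 and 4.04 at 8 mg/kg, without overlap, and fell by 1.03 (SE 0.08; limma adjusted p = 0.000114). Its within-slide differences ran only from -1.24 to -0.95. Sucnr1, the succinate receptor, fell by 1.12 (SE 0.11), from 5.92 to 6.66 at 1 mg/kg to 5.01 to 5.82 at 8 mg/kg. S1pr5, a sphingosine 1-phosphate receptor, fell by 1.14 (SE 0.15) without overlap. Cpsf4l (-1.16) and the regulator of G-protein signalling Rgs16 (-1.09) fell as well, the latter with overlapping groups.

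**Figure D5:**
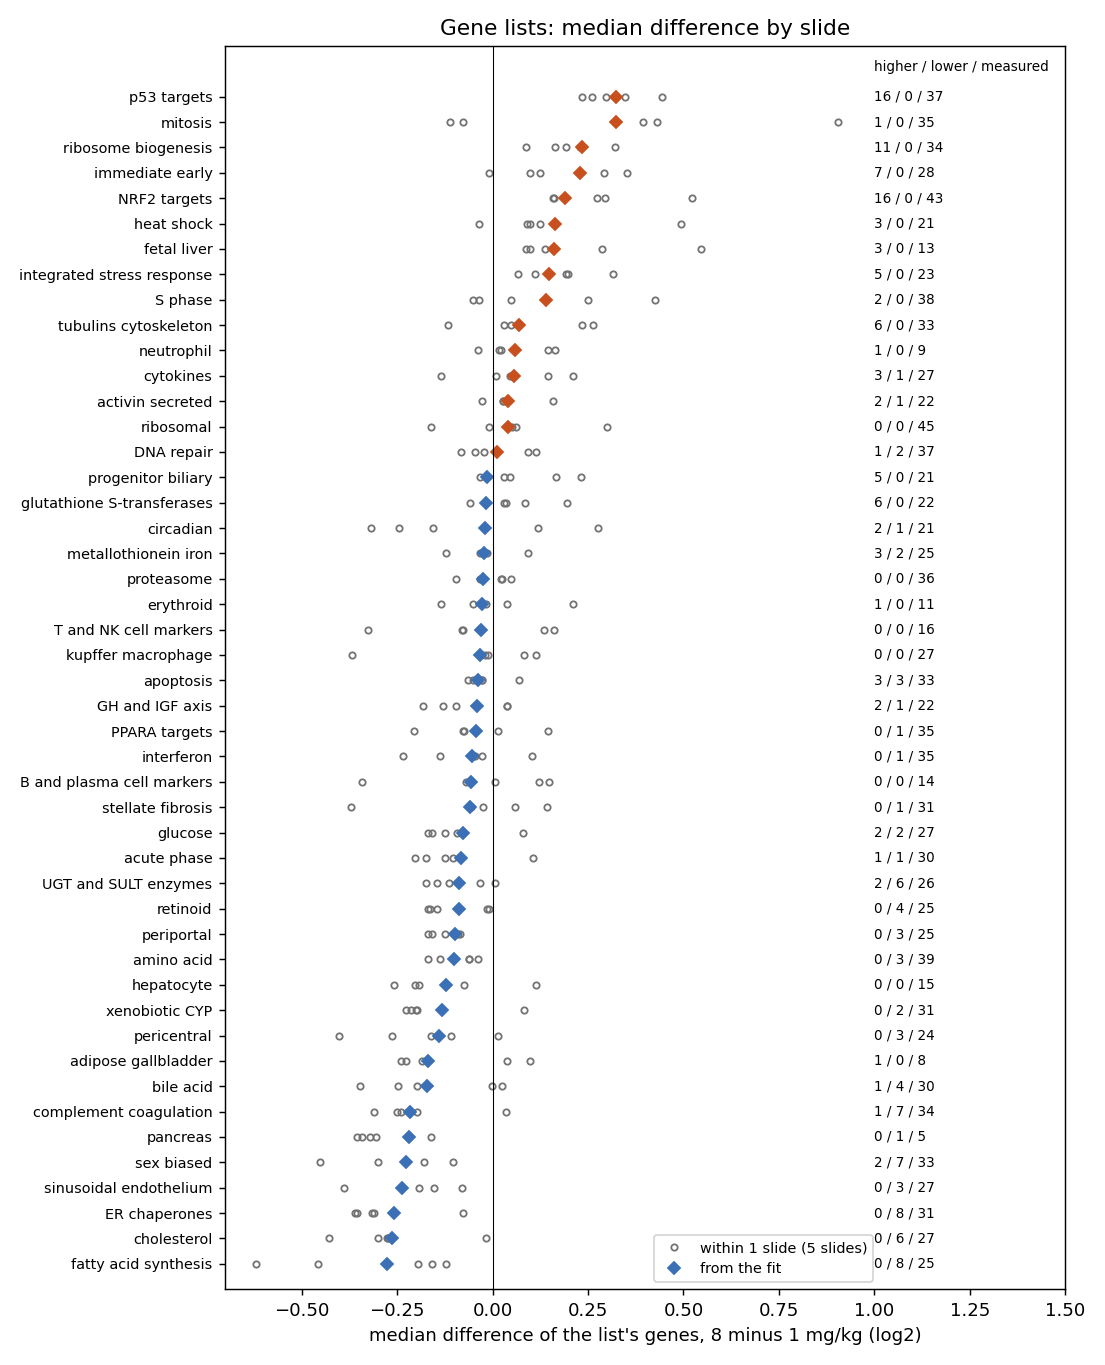
Median difference of each of 47 gene lists (8 minus 1 mg/kg, log2): diamonds from the fit, open circles within each slide, with counts called higher, called lower and measured at the right. The p53 list is highest at 0.32 and the fatty acid list lowest at -0.28; quantile and scale normalization reverses several liver lists.

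Markers of other liver cells gave few calls. Of 27 Kupffer cell and macrophage, 16 T and NK and 14 B and plasma cell markers 0 passed in limma. At an unadjusted limma p under 0.05 were 4, 1 and 0 of them, against 20.6% of all genes. All 27 endothelial markers had differences below 0 (median -0.24), 3 of them called and 16 at an unadjusted p under 0.05. Of them 0 were called without slide 1, 2 or 5, 1 without slide 4, and 0 after quantile and scale normalization, where the median was -0.04; Stab2 (-0.27) and Clec4g (-0.14) did not pass. The pancreas list had 1 of 5 called, Amy2a5 at -0.81, with Cela2a (-0.22) and Ctrb1 (-0.27) not passing. Cela2a was well above background on 4 arrays at 1 mg/kg and 1 at 8 mg/kg. The part of other cells in these results was not tested. Of 21 clock genes 2 rose and 1 fell, with a median of -0.02 that turned to 0.03 after quantile and scale normalization. Arntl rose by 1.07 ± 0.20 and Per3 fell by 0.52, both with overlapping groups, and Clock rose by 0.51 ± 0.11 without overlap; 1 rose without slide 1, 2, 3 or 4, and 0 fell without slide 2. Mt2, a metallothionein, fell by 0.91 (SE 0.17), and its values at 1 mg/kg ran from -0.13 to 2.17.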

How the data were processed

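Liver RNA of 10 mice was measured on 2-colour Agilent arrays, with the 4 control arrays used only in an alternative fit of all 14 arrays. Per the file headers, the deposited scanner intensities came from Feature Extraction 10.7.3.1; the median spot and local background intensities were used. The authors also deposited a table of linear ratios (normalization not stated), whose log2 values correlated at 0.992 to 0.995 with the ratios computed here; it served as an alternative. Intensities were corrected by normexp (offset 50) and normalized by loess within arrays in limma 3.58.1 (R 4.3.3). Of 62976 spots, 3671 control spots and 178 to 336 outlier spots per array were left out. Probes well above background on at least 4 of 10 arrays were kept (28283 of 55681), and the brightest probe stood for a gene, which left 21614 genes, 13630 with a RefSeq symbol. Another probe past the filter existed for 175 called genes. For 152 of them all other probes had the same sign, and for 23 another probe had the opposite sign. Probes sharing an accession without a symbol were merged the same way; that was set after a first count with separate probes (1177 called) had been seen. Differences were tested with lmFit and eBayes, slide as a fixed block, with Benjamini-Hochberg adjustment over all genes. The submitters describe the mice as biological replicates. The script was tested on simulated data.

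Named genes are the 15 largest called rises and falls with 1 sign on all slides, up to 6 called members of each list by p with the 2 next members that did not pass, and genes measured in only 1 group. Defining cell type markers were named too. Calr, Hsp90b1, Pdia6 and Cdc20 were added after their values were seen. Gsta3, Gsta4, Ddit3, Chac1, Trib3, Cd34, Igf2bp1 and Dlk1 are also outside this rule and were named with their values known. Of the 15 falls, 1 is not reported here. The members and lists were chosen with earlier results of these data known. Deviations of same-numbered replicates correlated at -0.37 to 0.25, and those of arrays of 1 slide at 0.17 to 0.63. The ranges overlap, and replicate 1 of both doses lay on slide 2, so its 0.25 is in both. Whether the numbers pair the mice was not settled.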

Additional observations from a re-analysis of the deposited data

Results flagged for a closer look

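Only the 30 genes with the largest differences and the 47 list means were checked for a mouse far from the other 4 of its group, and 13 of 154 groups had one; chance flags about 1 in 20 groups. Among genes, Cyp26b1 was low in 1 mg/kg replicate 3 (1.32), Cpsf4l high in 1 mg/kg replicate 4 (4.08) and Sucnr1 low in 1 mg/kg replicate 2 (5.92). The centred mean of NRF2 targets was highest in 8 mg/kg replicate 1 (0.39). In 8 mg/kg replicate 2, which lay on slide 3, list means were set apart for apoptosis (0.043), xenobiotic P450 (0.55), sex-biased (0.47), growth hormone and IGF (0.24), glucose (0.32), acute phase (0.55), interferon (0.21) and metallothionein and iron genes (0.36). The B and plasma cell mean was low in 8 mg/kg replicate 4 (-0.24).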

How the results depend on the processing

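The count of 1044 called genes (456 higher, 588 lower) changed by over 1.5 times under these settings: no slide block (221; 122 and 99), normexp offset 16 (518; 247 and 271), median centring (327; 200 and 127), processed signals (42; 33 and 9), a 1.5-fold minimum (289; 138 and 151) and an adjusted p under 0.1 (1967; 843 and 1124). Quantile and scale normalization gave 850 (356 lower), of which 543 were among the 1044. With the replicate block in place of the slide, 118 genes passed (70 higher, 48 lower). Whether the numbers pair the mice was not settled. Leaving out 1 array, which leaves out its slide, gave 333 to 871 genes, 162 to 392 higher and 171 to 510 lower. Testing accessions without a symbol per probe, added after seeing the data, gave 1177. Of 5942 values of named genes under the alternatives, 4661 kept their side of the threshold, 1157 lost the call, 110 gained it and 14 reversed. Reversal was counted only for genes called in the main fit. A gene not called could change sign and still count as kept, as Cps1 did (-0.27 to 0.29). Leaving out either array of a slide gave the same fit, so those values were counted under both arrays. Reversed under quantile and scale normalization were Otc (0.18), C4b (0.063), C3 (0.022), F13b (0.12), F11 (0.067), Tfr2 (0.22), Slc1a2 (0.010) and Glul (0.029); under processed signals Onecut1 (-0.037), Pklr (0.20), Slco1a4 (0.13), Ugt2a3 (0.18) and Otc (0.082); and with the mean of probes Hspa4 (-0.077). The causes were not tested. Mean spot signals were not run, since the files used here give medians. With 5 pairs and probes near background, small differences are not resolved.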
